A study of Mus musculus with 160 samples.

Results

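The DNA replication machinery was followed as 47 genes, from the complex that marks origins to the enzymes that supply nucleotides. The members were chosen by name, as the rows of the count table whose Ensembl gene ID carries 1 of 47 listed symbols in GENCODE M21. All 47 were found among the 46078 genes of the table, and all 47 passed the filter on low counts in each of the comparisons below. They fall into 11 role classes: the origin recognition complex (Orc1 to Orc6, 6 genes), the licensing factors Cdc6 and Cdt1 with their inhibitor Gmnn (3 genes), the MCM helicase (Mcm2 to Mcm7, 6 genes), helicase activation (Mcm10, Cdc45 and Gins1 to Gins4, 6 genes), the Cdc7 kinase with its activator Dbf4 (2 genes), primase and polymerase alpha (Prim1, Prim2, Pola1 and Pola2, 4 genes), polymerases delta and epsilon (Pold1, Pold2, Pold3, Pole and Pole2, 5 genes), the sliding clamp and clamp loader (Pcna and Rfc1 to Rfc5, 6 genes), replication protein A (Rpa1 to Rpa3, 3 genes), Okazaki fragment joining (Lig1 and Fen1, 2 genes) and nucleotide supply (Rrm1, Rrm2, Tk1 and Tyms, 4 genes).

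Before S phase, the origin recognition complex together with CDC6 and CDT1 loads the MCM ring onto origins in an inactive form, and geminin, the product of Gmnn, blocks loading once replication has begun. The Cdc7 kinase, MCM10, CDC45 and GINS then turn the ring into a moving helicase, primase and polymerase alpha start each strand, and PCNA, placed by the RFC clamp loader, holds polymerases delta and epsilon to the template. Many of these genes are transcribed as cells enter the cycle, under E2F factors, and are low in resting cells. The tissue here is the aorta-gonads-mesonephros (AGM) region, the embryonic site where hematopoietic cells arise from endothelium.

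The data were RNA sequencing of pools of 20 sorted AGM cells, made with Smart-seq2, a method that copies full-length cDNA from few cells. The 8 populations were the Gata3-GFP+ and Gata3-GFP- fractions of endothelial cells (ECs) and hematopoietic cells (HCs) at E10.5, and, at E11.5, of mesenchymal cells (MCs) and of cells of the sympathetic nervous system (SNS cells). All embryos had the genotype Gata3-GFP +/-, a knock-in reporter of Gata3, so the Gata3-GFP- pools were unlabelled cells with the same allele and not cells of another genotype, and Gata3 activity itself set the fractions. The EC gate took cells that carried VE-cadherin and lacked CD41 and CD45, the HC gate took cells with CD41 or CD45, and the column names carry PDGFRb for MCs and p75 for SNS cells. The E10.5 cells came from 3 to 5 biological replicates of pooled embryos, which the columns do not tie to pools, so pools were the replicates and p-values measure the spread between pools. Of the 20 pools per population, 7 pools in all missed the limits on reads and the rest passed: 19 and 20 Gata3-GFP+ and Gata3-GFP- EC pools, 20 and 20 HC pools, 20 and 17 MC pools, and 18 and 19 SNS pools. They held 1400824 to 16004756 counts on genes, without molecular identifiers, so a count error computed from reads alone would be too small.

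The labels were checked against cell type markers and against Gata3 before any result was read. At E11.5, 3 pools of each of the 4 populations had the markers of the other cell type. In 3 pools labelled Gata3-GFP+ MC the mesenchymal markers summed to 239 to 369 CPM (counts scaled to 1000000 per pool) and the sympathetic neuroblast and neural crest markers to 1763 to 2189 CPM, whereas the other 17 had 2742 to 3827 and 52.5 to 171 CPM. The same held for 3 pools labelled Gata3-GFP- MC, 3 labelled Gata3-GFP+ SNS and 3 labelled Gata3-GFP- SNS, so that their cell type is in doubt. In each of the 4 populations, these pools were the last 3 of the 20 columns of that name. What placed such pools together was not tested. Gata3 differed from the label as well in part of them. It was 122.7 to 395 CPM in those 3 Gata3-GFP- MC pools against 2.52 to 19.04 CPM in the other 14, and 9.97 to 24.3 CPM in those 3 Gata3-GFP+ SNS pools against 111.2 to 306 CPM in the other 15. In the 3 Gata3-GFP+ MC pools it was 16.3 to 82.3 CPM (others 19.7 to 70.5) and in the 3 Gata3-GFP- SNS pools 44.4 to 50.2 CPM (others 11.2 to 94.04), where the Gata3-GFP+ MC pools with MC markers also lie. The fraction is thus in doubt in such pools beside the cell type. These 12 pools were kept under their labels and moved nowhere. The main counts of called members and the summed levels at E11.5 are given with all pools and without the 12, a choice made after the data were seen. E11.5 values given only once are with all pools unless stated otherwise. Gata3 was higher in the Gata3-GFP+ fraction of ECs (log2 fold change 2.66), HCs (2.89) and SNS cells (1.85), whereas in MCs it was −0.66 (adjusted p = 0.496) with all pools and 1.88 without the 12 (adjusted p = 8.98e-08, quasi-likelihood test of edgeR, Benjamini-Hochberg adjusted, as everywhere here). Within HCs, the megakaryocyte markers summed to 1648 to 59466 CPM in Gata3-GFP+ pools (median 9563) and 129.1 to 3885 CPM in Gata3-GFP- pools (median 591), and 3 Gata3-GFP+ HC pools had sympathetic neuroblast sums of 372 to 1941 CPM where no Gata3-GFP- HC pool passed 27.9 CPM. Among ECs, 1 Gata3-GFP+ pool had 4546 CPM on mesenchymal and mural markers, and the next highest had 558 CPM.

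**Figure D1:**
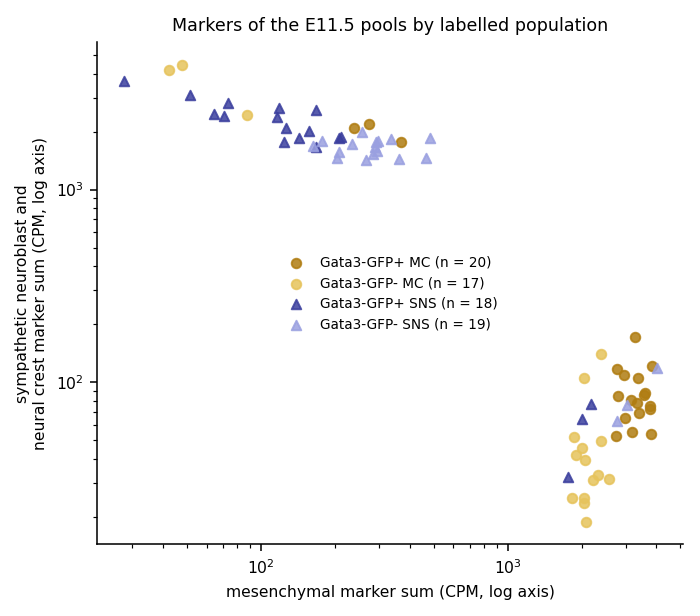
Sum of mesenchymal markers (x axis, CPM, log axis) and of sympathetic neuroblast and neural crest markers (y axis, CPM, log axis) in each passing E11.5 pool, coloured by labelled population. Most MC pools lie at the lower right and most SNS pools at the upper left, and 3 pools of each label lie in the other cloud.

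The summed level of the 47 genes, in CPM scaled by TMM over the passing pools, was lowest in Gata3-GFP+ ECs, at 2418 ± 484 CPM (SD, n = 19 pools), and highest in Gata3-GFP- HCs, at 5880 ± 667 CPM (n = 20). Gata3-GFP+ SNS cells followed at 5611 ± 1050 CPM (n = 18), within 1 SD of Gata3-GFP- HCs. Between them and Gata3-GFP+ ECs lay Gata3-GFP- MCs (4746 ± 660 CPM, n = 17), Gata3-GFP- ECs (4686 ± 662, n = 20), Gata3-GFP+ HCs (4366 ± 1050, n = 20), Gata3-GFP- SNS cells (4355 ± 679, n = 19) and Gata3-GFP+ MCs (3539 ± 728, n = 20), and neighbours in this order overlapped within 1 SD. Without the 12 E11.5 pools, the means were 5774 CPM in Gata3-GFP+ SNS cells, 4777 in Gata3-GFP- MCs, 4563 in Gata3-GFP- SNS cells and 3436 in Gata3-GFP+ MCs. Stage and cell type cannot be told apart between the E10.5 and E11.5 populations. Levels across stages, here and for the single genes below, are thus a description and were not tested. In a pool of 20 cells, fewer replicating cells and less replication RNA per cell cannot be told apart.

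The single genes repeated this order. Gata3-GFP+ ECs had the lowest mean of the 8 populations for 38 of the 47 genes, and Gata3-GFP- HCs and Gata3-GFP+ SNS cells had the highest for 22 and 20. The span between the highest and lowest population was 6.64-fold for Rrm2, the regulated subunit of ribonucleotide reductase, with 445 CPM in Gata3-GFP+ SNS cells and 67.02 CPM in Gata3-GFP+ ECs. It was 5.35-fold for Cdc6 and 5.10-fold for Mcm10, but 1.44-fold for Orc5 and 1.47-fold for Pole2, the second subunit of polymerase epsilon. Counts on genes were also set against the ERCC spike-in RNAs, which were added to every pool. The log2 ratio of gene counts to ERCC counts was 0.71 lower in Gata3-GFP+ than in Gata3-GFP- ECs (permutation test, two-sided, 100000 draws, p = 2e-05 and thus the least that so many draws allow, adjusted p = 8e-05 over 4 cell types) and differed by −0.03 in HCs, 0.04 in MCs and 0.29 in SNS cells (adjusted p = 0.785, 0.785 and 0.0768 by the same permutation test). CPM takes this difference out, so a gene with the same CPM in both EC fractions had fewer counts per spike-in count in Gata3-GFP+ ECs. Leaving out the MC and SNS pools whose markers go against the label gave larger differences, with the Gata3-GFP+ ratio higher in both. They were 0.17 in MCs (SD 0.19 in Gata3-GFP+ and 0.20 in Gata3-GFP- pools) and 0.42 in SNS cells (SD 0.35 and 0.28). Neither was tested.

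**Figure D2:**
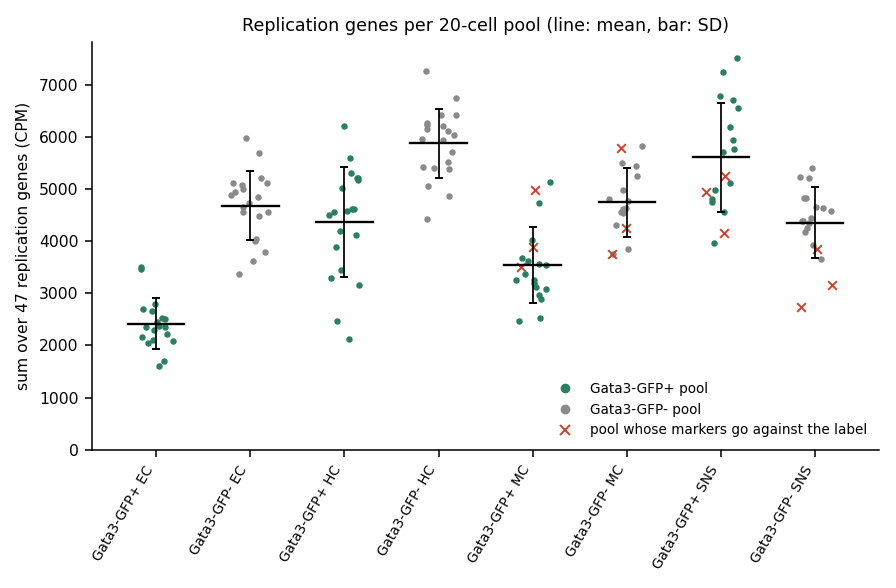
Summed level of the 47 replication genes (y axis, CPM) in each 20-cell pool, by population (x axis), green for Gata3-GFP+ and grey for Gata3-GFP-, with the mean (line) and SD (bar); red crosses are the 12 E11.5 pools whose markers go against the label. The Gata3-GFP+ EC pools lie lowest, between 1604 and 3504 CPM, and the Gata3-GFP- HC pools reach 7262 CPM.

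Subunits of one complex were not at one level. Per kilobase of exon, the 6 MCM genes lay within 1.73- to 2.39-fold of each other in every population, with Mcm2 the lowest in all 8. In Gata3-GFP- HCs, for example, Mcm2 had 32.5 CPM per kilobase and Mcm5 77.7, and in Gata3-GFP+ ECs Mcm2 had 12.8 and Mcm3 27.7. The origin recognition complex spread far wider, since Orc1, its ATPase, was the lowest subunit and Orc6 the highest in every population: Orc1 had 1.07 CPM per kilobase against 56.3 for Orc6 in Gata3-GFP+ MCs and 4.83 against 62.5 in Gata3-GFP- HCs. Per kilobase, Rrm2 was above Rrm1, the large subunit of the reductase, in all 8 populations. The ratio was 2.62-fold in Gata3-GFP+ ECs and 5.33-fold in Gata3-GFP+ SNS cells. Annotated exon lengths count every isoform, so these levels and orders carry the error of the annotation. In CPM, Rrm1 was the higher in Gata3-GFP+ ECs (101.5 against 67.02), Gata3-GFP+ MCs (189 against 170) and Gata3-GFP- SNS cells (239 against 219). Likewise, Mcm2 was not the lowest MCM gene in CPM in Gata3-GFP+ SNS cells, at 260 against 197 for Mcm5.

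The first comparison asked how Gata3-GFP+ ECs, the fraction that the study set beside Gata3-GFP- ECs for its hemogenic activity, stood in this machinery. Of the 47 genes, 36 were lower in Gata3-GFP+ ECs and 0 were higher, against 16.5% lower and 19.5% higher among the 15073 genes tested (edgeR's quasi-likelihood test, called at an adjusted p below 0.01 with the log2 fold change over 0.1 in size). All 47 log2 fold changes were negative, with a median of −1.04, whereas the median of all genes tested was 0.10. The summed level was 1.94-fold lower in Gata3-GFP+ ECs, and 17 of their 19 pools lay below every Gata3-GFP- pool. No single member separated all pools of the fractions; 1.35% of all genes tested had every Gata3-GFP+ pool below every Gata3-GFP- pool. Without the Gata3-GFP+ pool high in mesenchymal and mural markers, 35 genes were lower and 0 higher, against 17% and 18.5% of all genes.

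In the loading of origins, Cdc6, the ATPase that brings MCM to the origin recognition complex, ranged from 0.268 to 36.5 CPM (median 12.3) in the Gata3-GFP+ pools and from 20.5 to 112.9 CPM (median 48.4) in the Gata3-GFP- pools. It fell by 2.04 on the log2 scale (SE 0.37, adjusted p = 1.21e-05), and 15 of 19 Gata3-GFP+ pools were below every Gata3-GFP- pool. Cdt1 and Gmnn, partner and inhibitor in loading, fell together, by 1.07 and 1.07, so that all 3 licensing genes were lower. All 6 MCM genes were lower as well, by 0.95 (Mcm2) to 1.39 (Mcm5) on the log2 scale. Mcm5 had 24.8 to 142.5 CPM (median 67.6) in Gata3-GFP+ pools against 128.5 to 302 CPM (median 183) in Gata3-GFP- pools. It was 2.62-fold lower (−1.39 (SE 0.15, adjusted p = 2.59e-10)), and 18 of 19 Gata3-GFP+ pools fell below the range of Gata3-GFP- ECs, the most of any member. In the helicase activation class 4 of 6 genes were lower: Mcm10, Cdc45, Gins2 and Gins1. Mcm10, which joins the helicase to polymerase alpha, had 0.578 to 33.7 CPM (median 8.71) in Gata3-GFP+ pools against 12.5 to 54.8 CPM (median 30.5) in Gata3-GFP- pools, and fell by 1.57 on the log2 scale (SE 0.33, adjusted p = 0.000129). Cdc45, a core part of the moving helicase, fell by 1.54 on the log2 scale (SE 0.26, adjusted p = 3.09e-06), and Gins2 fell by 1.53 on the log2 scale (SE 0.19, adjusted p = 4.6e-09), while Gins3 and Gins4 had log2 fold changes of −0.59 and −0.18 (adjusted p = 0.121 and 0.373). Gins2 shares 67.3% of its exon bases with Gse1 on the opposite strand and the strand setting of the counting is not stated, so its counts are uncertain.

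Of the origin recognition complex 2 of 6 genes were lower, and of the kinase 1 of 2. Orc6, the smallest subunit of the complex, had 45.2 to 121.02 CPM (median 67.7) in Gata3-GFP+ pools against 103.2 to 216 CPM (median 148.03) in Gata3-GFP- pools, and fell by 1.07 on the log2 scale (SE 0.11, adjusted p = 6.22e-11). Orc2 fell by 0.78 on the log2 scale (SE 0.20, adjusted p = 0.00122), whereas Orc1, Orc3, Orc4 and Orc5 did not pass the test, with log2 fold changes from −0.60 (Orc1) to −0.07 (Orc4). Orc4 pools of the fractions covered almost the same range, 27.9996 to 123.03 CPM (median 75.8) and 29.4 to 107.4 CPM (median 83.4). Dbf4, which activates the Cdc7 kinase, had 10.95 to 93.4 CPM (median 53.5) in Gata3-GFP+ pools against 61.9 to 116.9 CPM (median 88.7) in Gata3-GFP- pools, and fell by 0.72 on the log2 scale (SE 0.16, adjusted p = 0.000346). The kinase subunit Cdc7 itself had a log2 fold change of −0.56 (SE 0.25, adjusted p = 0.0627).

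Synthesis genes were lower in the same pools. All 4 genes of primase and polymerase alpha passed the test with all pools, and Pola1 no longer did without the Gata3-GFP+ pool high in mesenchymal and mural markers (−0.72, adjusted p = 0.0121). Pola2, the accessory subunit of polymerase alpha, had 13.7 to 90.1 CPM (median 33.7) in Gata3-GFP+ pools against 43.9 to 136.5 CPM (median 85.2) in Gata3-GFP- pools, and fell by 1.24 on the log2 scale (SE 0.18, adjusted p = 3.31e-07). For polymerases delta and epsilon it was 3 of 5 (Pold2, Pold3 and Pole), and Pold2 had 10.2 to 74.5 CPM (median 24.4) in Gata3-GFP+ pools against 18.2 to 99.5 CPM (median 66.7) in Gata3-GFP- pools, a fall of 1.18 on the log2 scale (SE 0.20, adjusted p = 6.26e-06). Pole2 had 2.51 to 60.2 CPM (median 27.2) and 17.9 to 52.3 CPM (median 36.8) in the fractions, with 4 Gata3-GFP+ pools below and 4 above every Gata3-GFP- pool. The clamp Pcna ranged from 41.2 to 243 CPM (median 103.5) in the Gata3-GFP+ pools and from 142.3 to 375 CPM (median 283) in the Gata3-GFP- pools. It fell by 1.39 on the log2 scale (SE 0.15, adjusted p = 1.43e-10), and of its loader Rfc1, Rfc2, Rfc4 and Rfc5 also fell, by 0.57 to 1.27, while Rfc3 was −0.13 (adjusted p = 0.45). All 3 subunits of replication protein A, which coats single-stranded DNA, were lower: Rpa2 had 15.2 to 86.3 CPM (median 53.5) in Gata3-GFP+ pools against 47.3 to 208 CPM (median 124.99) in Gata3-GFP- pools and fell by 1.21 on the log2 scale (SE 0.16, adjusted p = 5.44e-08). Lig1, the ligase that seals Okazaki fragments, had 27.98 to 173 CPM (median 56.99) in Gata3-GFP+ pools against 82.5 to 213 CPM (median 149.1) in Gata3-GFP- pools, and fell by 1.13 on the log2 scale (SE 0.18, adjusted p = 1.12e-06). Fen1, the flap nuclease of the same step, is listed at 0 to 7.33 CPM in ECs and shares 84.2% of its exon bases with Tmem258 and Gm10143 on the opposite strand, so its counts say little.

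Nucleotide supply fell as a whole class. Rrm2 ranged from 12.3 to 142.2 CPM (median 62.7) in the Gata3-GFP+ pools and from 114.9 to 379.5 CPM (median 265) in the Gata3-GFP- pools. It fell by 1.97 on the log2 scale (SE 0.23, adjusted p = 2.32e-09), a 3.92-fold difference, and 17 of 19 Gata3-GFP+ pools lay below every Gata3-GFP- pool. Tk1, the thymidine kinase of dividing cells, fell by 1.74 on the log2 scale (SE 0.26, adjusted p = 3.75e-07), Tyms, which makes thymidylate, fell by 1.06 on the log2 scale (SE 0.15, adjusted p = 1.59e-07), and Rrm1 fell by 1.05 on the log2 scale (SE 0.13, adjusted p = 1.6e-08). Pcna and Tyms have processed pseudogenes (Pcna-ps1 and Pcna-ps2, Tyms-ps), and reads of copies this alike may be split between them. Other markers moved between the EC fractions too: mesenchymal markers were higher in Gata3-GFP+ ECs (4 of 4 tested), as were 2 of 3 mural and 2 of 3 sympathetic neuroblast markers tested, with sums of 5.12 to 1251, 12.6 to 3295 and 283 to 744 CPM against 1.61 to 66.5, 3.30 to 29.6 and 15.4 to 146.4 CPM in Gata3-GFP- ECs. Lum was at 0 in most EC pools of both fractions, as were Cspg4 and Myh11, and Th and Phox2a were at 0 in most Gata3-GFP+ EC pools. Endothelial markers were higher in 5 of 6 and lower in 1, haematopoietic markers higher in 2 of 5, erythroid in 2 of 3 and urogenital epithelium in 1 of 2, with sums of 4157 to 5500.4, 9.30 to 215, 2.10 to 127.7 and 4.04 to 63.6 CPM against 2858 to 4486, 8.10 to 50.4, 0.443 to 40.2 and 0.175 to 9.89 CPM. The highest mesenchymal and mural sums belonged to the pool with 4546 CPM on both lists, and the next highest pool had 558 CPM. Without it, 3 of 4 mesenchymal, 2 of 3 mural, 2 of 3 sympathetic and 1 of 3 erythroid markers were higher. The part of all these markers in the lower replication genes was not tested. Genes of mitosis were lower in 6 of 9, with a median of −1.08, and in 8 of 9 without the pool high in mesenchymal and mural markers.

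Genes that fell together were shown with the sequence around their starts. RefSeq windows of 300 bases on GRCm38.p6, 250 before and 50 after an annotated start, were found for 39 of the 47 genes, 48 windows in all. The search, on both strands, was for TTCGCGC or TTGGCGC, letters that E2F factors are known to bind, for CCAAT, the letters of NF-Y, and for TTTGAA, the core of the cell cycle homology element. The E2F letters stood in 29.2% of the members' windows (14 of 48, from 13 genes) and in 3.89% of all 32851 windows, CCAAT in 52.1% against 37.4%, and TTTGAA in 16.7% against 17.9%. Members with and without these letters had median log2 fold changes in ECs of −1.03 and −1.06 for E2F, −1.04 and −1.05 for CCAAT, and −0.95 and −1.05 for TTTGAA. A match is a description of the letters and not a site in use. Among the members with the largest EC fall of each role class, the windows of the 6 that fell most follow, 5′ to 3′ on the gene's own strand, with matches in capitals: Cdc6 (chr11:98907901-98908200, plus strand), Rrm2 (chr12:24708004-24708303, plus), Mcm10 (chr2:5012742-5013041, minus), Mcm5 (chr8:75109259-75109558, plus), Pcna (chr2:132253131-132253430, minus) and Pola2 (chr19:5964157-5964456, minus).
Cdc6: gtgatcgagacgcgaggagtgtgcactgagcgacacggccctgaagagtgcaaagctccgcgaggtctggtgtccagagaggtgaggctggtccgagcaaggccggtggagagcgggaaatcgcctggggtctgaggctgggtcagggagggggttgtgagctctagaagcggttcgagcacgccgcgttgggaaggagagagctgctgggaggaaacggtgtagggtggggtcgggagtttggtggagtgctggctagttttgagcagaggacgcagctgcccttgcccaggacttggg
Rrm2: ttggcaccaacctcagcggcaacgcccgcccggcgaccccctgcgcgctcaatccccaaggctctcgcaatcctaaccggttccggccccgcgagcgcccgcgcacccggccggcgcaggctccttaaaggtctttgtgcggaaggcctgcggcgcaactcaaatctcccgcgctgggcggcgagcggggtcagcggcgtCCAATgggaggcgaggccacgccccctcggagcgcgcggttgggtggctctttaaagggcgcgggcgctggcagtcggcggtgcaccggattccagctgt
Mcm10: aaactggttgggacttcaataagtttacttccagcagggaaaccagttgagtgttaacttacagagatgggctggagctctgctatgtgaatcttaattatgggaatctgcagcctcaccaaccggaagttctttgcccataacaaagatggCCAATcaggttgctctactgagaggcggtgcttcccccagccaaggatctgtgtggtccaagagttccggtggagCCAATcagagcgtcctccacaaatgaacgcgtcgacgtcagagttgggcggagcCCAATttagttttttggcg
Mcm5: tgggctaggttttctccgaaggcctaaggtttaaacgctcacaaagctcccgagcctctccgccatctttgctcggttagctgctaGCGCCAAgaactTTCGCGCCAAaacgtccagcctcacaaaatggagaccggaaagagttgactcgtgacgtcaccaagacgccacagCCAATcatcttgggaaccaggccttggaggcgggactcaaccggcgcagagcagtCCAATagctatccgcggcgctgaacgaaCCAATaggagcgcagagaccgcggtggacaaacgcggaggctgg
Pcna: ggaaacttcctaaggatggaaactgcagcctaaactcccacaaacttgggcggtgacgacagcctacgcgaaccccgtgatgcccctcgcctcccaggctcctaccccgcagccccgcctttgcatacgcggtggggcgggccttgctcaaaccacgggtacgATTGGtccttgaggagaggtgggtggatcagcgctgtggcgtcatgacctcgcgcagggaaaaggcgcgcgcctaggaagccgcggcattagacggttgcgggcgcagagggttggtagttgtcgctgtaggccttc
Pola2: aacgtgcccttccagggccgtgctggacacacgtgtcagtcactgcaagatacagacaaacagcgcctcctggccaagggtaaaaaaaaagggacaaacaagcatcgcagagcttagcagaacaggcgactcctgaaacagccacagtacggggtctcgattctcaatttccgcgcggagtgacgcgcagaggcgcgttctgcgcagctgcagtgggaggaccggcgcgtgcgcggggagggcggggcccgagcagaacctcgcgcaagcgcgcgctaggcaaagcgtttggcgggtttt
Mcm5 has E2F letters in 3 places, the first of which begins 164 bases before the start and the others of which overlap on opposite strands, and CCAAT 77 and 22 bases before it and 6 bases after it. Mcm10 has CCAAT 98 and 23 bases before its start and 31 bases after it, Rrm2 50 bases before, and Pcna, on the reverse strand, 87 bases before. These windows of Cdc6 and Pola2 held none of the exact letters searched, and both genes fell by over 1 on the log2 scale in Gata3-GFP+ ECs. Other forms of these letters were not looked for, so E2F letters in a wider sense may be present. The Cdc6 window also lies wholly after the start of the gene in GENCODE M21, at base 98907801, and the bases before that start were not searched.

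**Figure D3:**
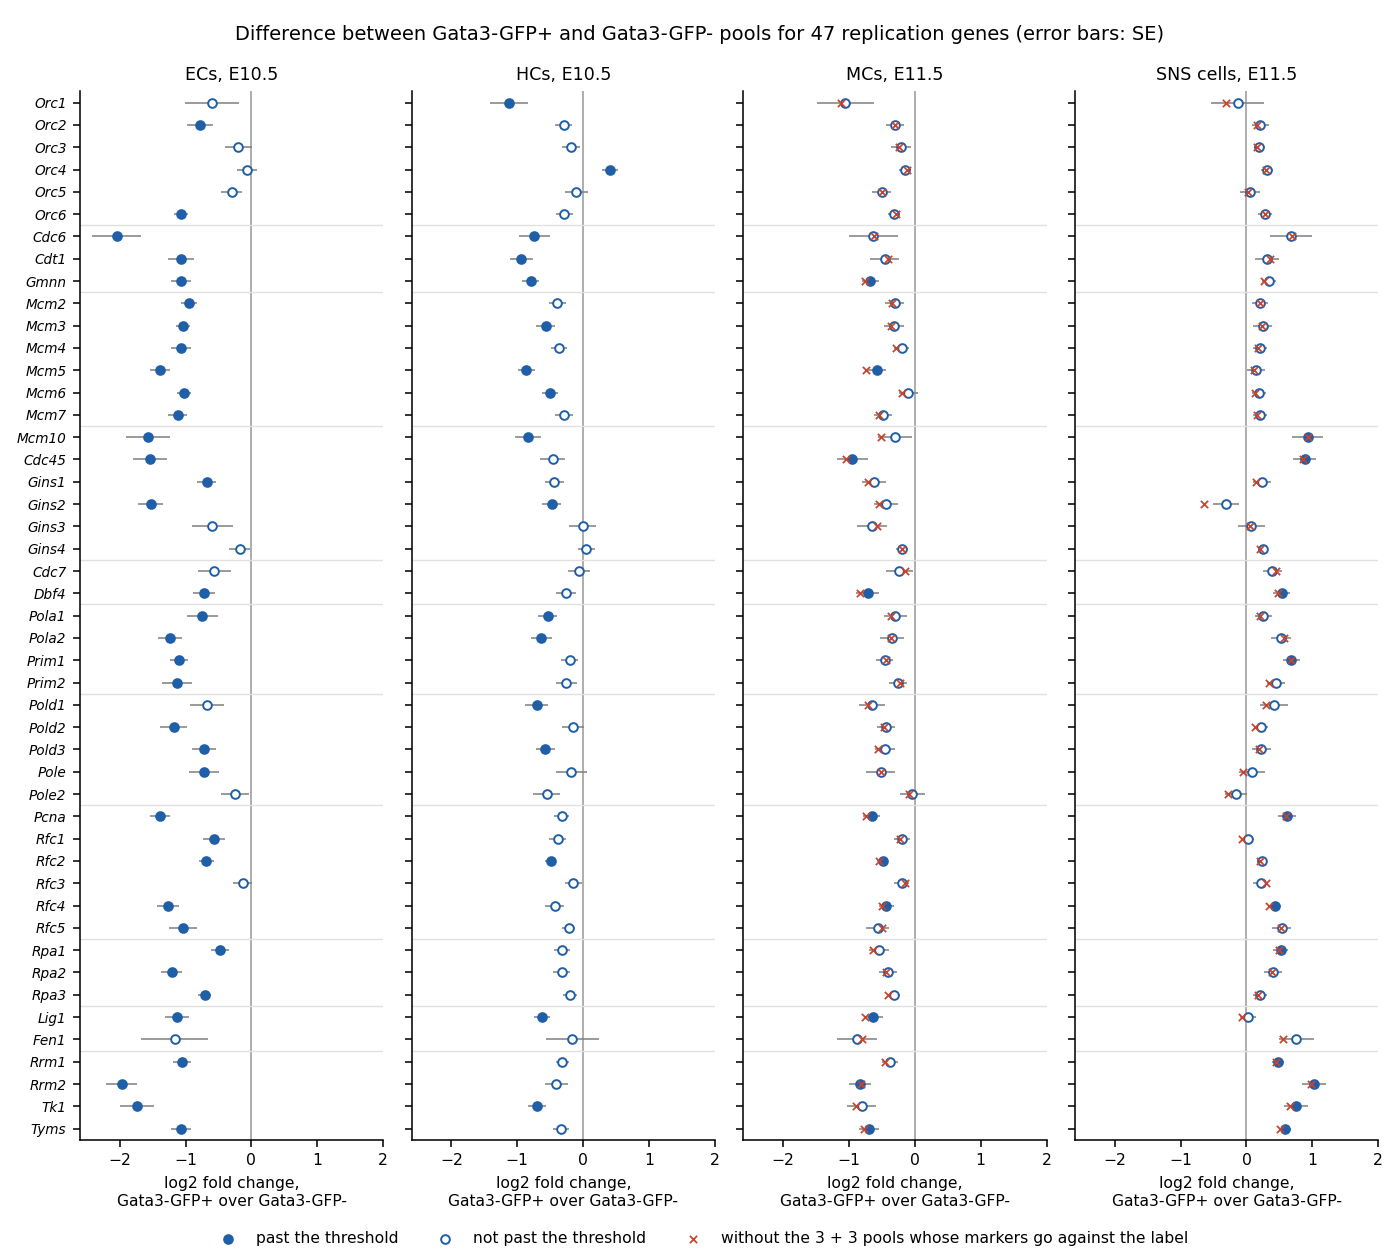
Log2 fold change of each of the 47 genes (rows, by role class from the origin recognition complex at the top to nucleotide supply at the bottom) between Gata3-GFP+ and Gata3-GFP- pools (x axis) in ECs, HCs, MCs and SNS cells. Points are fitted values with their SE, filled where past the threshold (36 in ECs, 17 in HCs, 10 in MCs and 11 in SNS cells), and red crosses give the value without the E11.5 pools whose markers go against the label.

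In HCs the machinery was lower in Gata3-GFP+ cells as well, but less so. Of the 47 genes, 16 were lower and 1, Orc4, was higher in Gata3-GFP+ HCs, against 9.53% and 17.1% of the 16200 genes tested, and 45 of 47 log2 fold changes were negative with a median of −0.36 (all genes 0.05). The summed level was 1.35-fold lower, and 8 of 20 Gata3-GFP+ pools lay below every Gata3-GFP- pool. All 3 licensing genes were again lower with all pools, and 3 of 6 MCM genes (Mcm3, Mcm5 and Mcm6), while the Cdc7 kinase and replication protein A had 0 of 2 and 0 of 3. Megakaryocyte markers moved with this difference, and all 5 were higher in Gata3-GFP+ HCs. Without the 9 Gata3-GFP+ pools above 10000 CPM on those markers, 8 of the 16 genes were lower (Cdt1, Gmnn, Mcm5, Pola2, Pold3, Rfc2, Lig1 and Tk1), and 0 were higher, against 6.22% and 9.75% of all genes. Without the 16 Gata3-GFP+ pools above every Gata3-GFP- pool on those markers, 4 Gata3-GFP+ pools were left, 0 members passed in either direction, against 0.459% and 0.717% of all genes, and the median was −0.10. What megakaryocyte cells contributed to the HC difference cannot be told apart from the fraction itself in these pools.

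Among the licensing genes, Cdt1, which loads MCM with CDC6, ranged from 24.5 to 125.6 CPM (median 68.5) in the Gata3-GFP+ pools and from 63.3 to 170.4 CPM (median 129.9) in the Gata3-GFP- pools. It fell by 0.94 on the log2 scale (SE 0.17, adjusted p = 3.21e-05), Gmnn fell by 0.80 on the log2 scale (SE 0.12, adjusted p = 1.75e-06) and Cdc6 fell by 0.74 on the log2 scale (SE 0.23, adjusted p = 0.00991). Cdc6 did not pass in any of the 3 sets with HC pools left out, with log2 fold changes of −0.27 to −0.60 (adjusted p = 0.0182 to 0.66). The 9 lowest Cdt1 pools were all Gata3-GFP+. Mcm5 ranged from 57.9 to 249 CPM (median 187) in the Gata3-GFP+ pools and from 203 to 446 CPM (median 308) in the Gata3-GFP- pools. It fell by 0.86 on the log2 scale (SE 0.13, adjusted p = 1.05e-06), with 13 of 20 Gata3-GFP+ pools below every Gata3-GFP- pool. Mcm10 had 5.92 to 58.2 CPM (median 24.6) in Gata3-GFP+ pools against 37.3 to 80.2 CPM (median 53.9) in Gata3-GFP- pools, and fell by 0.84 on the log2 scale (SE 0.20, adjusted p = 0.000808), with 14 of 20 pools below. Both genes had thus moved the same way in ECs.

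With all pools, the origin recognition complex split. Orc1, which binds the origin with ATP, had 0.613 to 20.2 CPM (median 7.97) in Gata3-GFP+ pools against 4.67 to 32.1 CPM (median 16.9) in Gata3-GFP- pools, and fell by 1.13 on the log2 scale (SE 0.28, adjusted p = 0.00155). Its fall did not pass without the 9 pools above 10000 CPM on megakaryocyte markers, or with 4 Gata3-GFP+ pools left. It did pass without the 3 pools highest in neuroblast markers. Orc4 went the other way, with 32.7 to 98.8 CPM (median 60.8) in Gata3-GFP+ pools and 29.04 to 76.5 CPM (median 49.9) in Gata3-GFP- pools, and rose by 0.40 on the log2 scale (SE 0.12, adjusted p = 0.00836). Its rise did not pass under scran or ERCC size factors, without a filter on genes, with the study's test, or in any of the sets with pools left out, where its call was lost in each. The other 4 subunits did not pass the test, with log2 fold changes from −0.29 to −0.10.

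In synthesis, Pola2 had 26.3 to 122.5 CPM (median 64.9) in Gata3-GFP+ pools against 68.3 to 203 CPM (median 107.8) in Gata3-GFP- pools. It fell by 0.64 on the log2 scale (SE 0.16, adjusted p = 0.00126) and Pola1 fell by 0.54 on the log2 scale (SE 0.14, adjusted p = 0.00207), whereas Prim1 and Prim2 were at −0.20 and −0.25 and did not pass. Pold1, the catalytic subunit of polymerase delta, had 10.2 to 64.5 CPM (median 41.3) in Gata3-GFP+ pools against 29.1 to 93.4 CPM (median 60.6) in Gata3-GFP- pools, and fell by 0.71 on the log2 scale (SE 0.18, adjusted p = 0.00136). Rfc2, a small subunit of the clamp loader, had 109.4 to 276 CPM (median 189.7) in Gata3-GFP+ pools against 165 to 310.3 CPM (median 263) in Gata3-GFP- pools, and fell by 0.49 on the log2 scale (SE 0.09, adjusted p = 2.51e-05). It was the one clamp or loader gene that passed, and it shares 15.1% of its exon bases with Lat2 on the opposite strand. Pcna was −0.33 (SE 0.11, adjusted p = 0.0215), with pools of 80.6 to 390.3 CPM (median 237) and 254 to 411 CPM (median 337): 11 Gata3-GFP+ pools lay below all Gata3-GFP- pools and the rest among them. Rpa1, the large subunit of replication protein A, was −0.32 (SE 0.11, adjusted p = 0.024), and Dbf4 was −0.26 (SE 0.15, adjusted p = 0.174). Lig1 had 63.01 to 239 CPM (median 136.4) in Gata3-GFP+ pools against 146.2 to 283 CPM (median 198) in Gata3-GFP- pools, and fell by 0.63 on the log2 scale (SE 0.12, adjusted p = 5.4e-05), with 14 of 20 pools below every Gata3-GFP- pool.

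Of the nucleotide genes 1 of 4 passed. Tk1 ranged from 33.5 to 109.1 CPM (median 72.7) in the Gata3-GFP+ pools and from 67.5 to 175 CPM (median 116.05) in the Gata3-GFP- pools. It fell by 0.70 on the log2 scale (SE 0.14, adjusted p = 8.15e-05). Rrm2, which had fallen 3.92-fold in Gata3-GFP+ ECs, was −0.40 (SE 0.18, adjusted p = 0.0716) in HCs, with pools of 29.8 to 343 CPM (median 207) and 157.3 to 398 CPM (median 301). Markers of other cell types rose in Gata3-GFP+ HCs besides those of megakaryocytes: all 8 sympathetic neuroblast, 5 of 6 mesenchymal, 4 of 5 mural and all 6 endothelial markers were higher, with sums of 5.004 to 1941, 12.1 to 567, 17.9 to 860 and 92.8 to 663 CPM, against 1.72 to 27.9, 0.887 to 116.2, 6.48 to 70.4 and 24.5 to 160 CPM in Gata3-GFP- HCs. Urogenital epithelium markers were higher in 3 of 3 tested (0.715 to 341 against 0 to 9.34 CPM) and neural crest and glial precursor markers in 4 of 5 (5.27 to 189.8 against 0.297 to 16.8 CPM), erythroid markers were higher in 1 and lower in 1 of 6, and haematopoietic markers were lower in 3 of 6 and higher in 1 (1088 to 2905 against 1669.98 to 2651 CPM). Of the macrophage markers 3 of 6 were lower, with sums of 203 to 5465 against 2645 to 7376 CPM. Phox2a was at 0 in most pools of both fractions. Without the 3 Gata3-GFP+ pools with the highest neuroblast sums, 17 members were lower, 14 of them among the 16, and 0 were higher, against 10.1% and 14.4% of all genes.

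Both fractions' differences were then set against each other in a single fit of the E10.5 pools. The difference was higher (less negative) in HCs than in ECs for 17 of 47 genes and lower for 0, against 14.1% and 8.60% of 17851 genes, with a median of 0.53 over the members and 0.11 over all genes. The 5 largest were Rrm2 (1.56, SE 0.30, adjusted p = 1.46e-05), Cdc45 (1.08, SE 0.32, adjusted p = 0.00534), Pcna (1.06, SE 0.19, adjusted p = 4.57e-06), Gins2 (1.05, SE 0.24, adjusted p = 0.000272) and Tk1 (1.04, SE 0.29, adjusted p = 0.00351). Leaving out pools gave 0 in the other direction each time. Without the 9 HC pools above 10000 CPM on megakaryocyte markers 19 genes were higher (10.1% of all genes, 8.38% lower), without the 16 above every Gata3-GFP- pool 16 (5.90%, 3.55%), without the 3 highest in neuroblast markers 16 (11.7%, 9.90%) and without the EC pool high in mesenchymal and mural markers 17 (14.3%, 8.67%). Over both fractions, 33 genes were higher in HCs than in ECs and 1, Orc4, was lower, against 26.6% and 24% of all genes. Mcm10 was 1.14 higher on the log2 scale (SE 0.19, adjusted p = 2.95e-07), Rfc5, a clamp loader subunit, 1.07 (SE 0.12, adjusted p = 4.66e-13) and Cdc6 1.02 (SE 0.22, adjusted p = 3.29e-05), and Orc4 was 0.46 lower (SE 0.098, adjusted p = 3.5e-05). With ERCC size factors the 33 became 38 and Orc4 no longer passed. The median of all genes then moved from 0.04 to 0.43, and that of the members from 0.58 to 0.94. As the share of all genes called under that scaling is not given here, the 38 are not read as a result about the members.

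**Figure D4:**
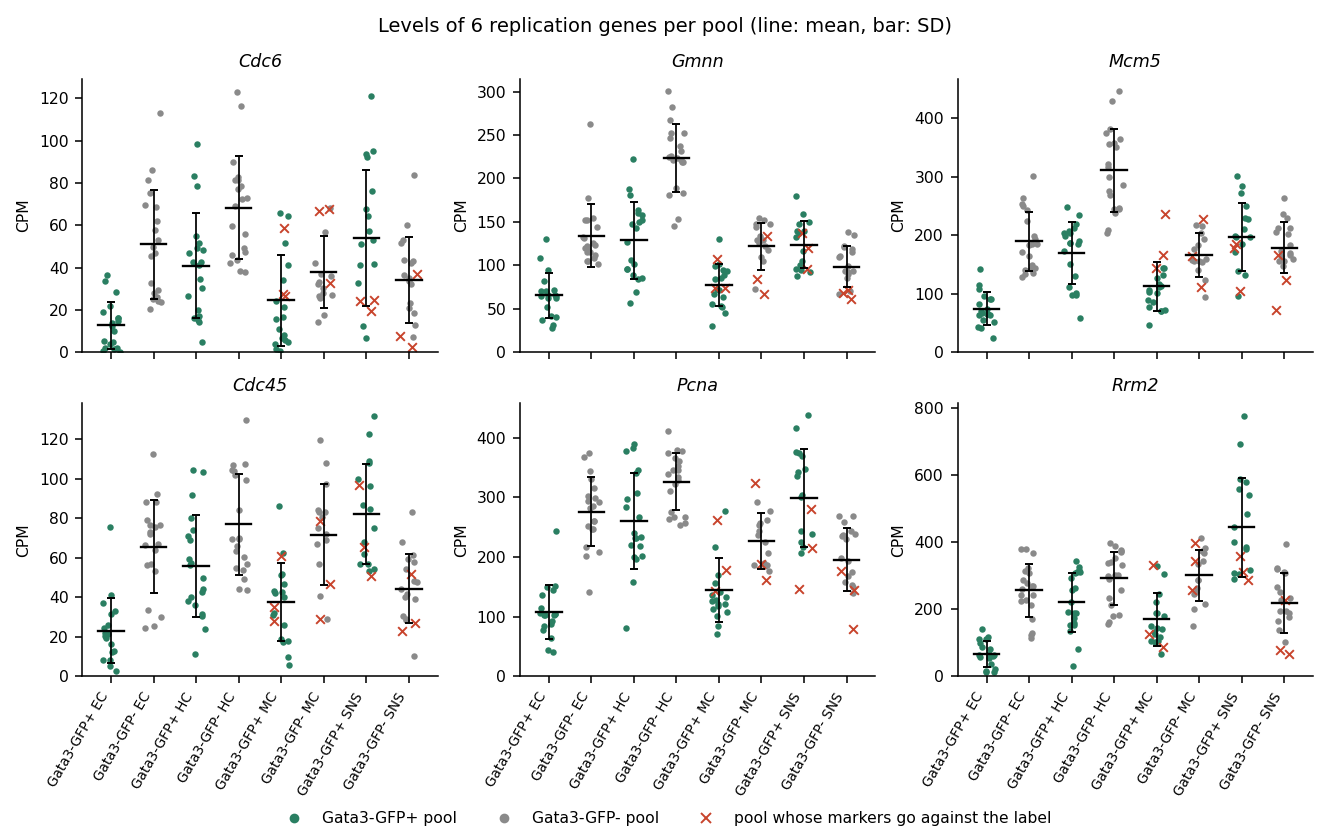
Level of Cdc6, Gmnn, Mcm5, Cdc45, Pcna and Rrm2 (y axes, CPM) in each pool of the 8 populations (x axis), green for Gata3-GFP+, grey for Gata3-GFP- and red crosses for the 12 E11.5 pools whose markers go against the label, with mean (line) and SD (bar). All 6 are lower in Gata3-GFP+ ECs, and Rrm2 has a median of 226 CPM in Gata3-GFP- SNS pools and 393 CPM in Gata3-GFP+ SNS pools.

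Among E11.5 MCs, the machinery was lower in Gata3-GFP+ cells. With all pools, 10 of 47 genes were lower and 0 higher, against 2.15% and 2.21% of the 16026 genes tested, and all 47 log2 fold changes were negative, with a median of −0.45 (all genes −0.01). Without the pools whose markers go against the label, 17 Gata3-GFP+ and 14 Gata3-GFP- pools were left and 16 genes were lower and 0 higher, against 4.89% and 5.52% of all genes, with a median of −0.49. The 16 were the same 10 (Gmnn, Mcm5, Cdc45, Dbf4, Pcna, Rfc2, Rfc4, Lig1, Rrm2 and Tyms) and Mcm7, Gins1, Gins2, Rpa1, Rpa3 and Tk1. The summed level was 1.34-fold lower with all pools, and 15 of 20 Gata3-GFP+ pools lay below every Gata3-GFP- pool. It was 1.39-fold lower without the doubted pools, with 14 of 17 below. With ERCC size factors 0 members passed, against 0.655% of all genes, although their median remained −0.45.

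Nucleotide supply and the clamp with its loader gave Rrm2, Tyms, Pcna, Rfc2 and Rfc4 among the 10. Rrm2 ranged from 67.3 to 331 CPM (median 142.4) in the Gata3-GFP+ pools and from 150.7 to 413 CPM (median 286) in the Gata3-GFP- pools. It fell by 0.83 on the log2 scale (SE 0.17, adjusted p = 0.00114), and by 0.81 without the 6 doubted MC pools. Pcna ranged from 70.5 to 278 CPM (median 130.6) in the Gata3-GFP+ pools and from 162 to 323 CPM (median 225) in the Gata3-GFP- pools. It fell by 0.65 on the log2 scale (SE 0.13, adjusted p = 0.00106), and without the doubted pools 15 of 17 Gata3-GFP+ pools lay below every Gata3-GFP- pool (a fall of 0.74, adjusted p = 9.3e-05). Tyms, Rfc2 and Rfc4 also fell, by 0.69, 0.49 and 0.43, whereas Tk1 had −0.81 (SE 0.22, adjusted p = 0.0156) with all pools and fell by 0.90 on the log2 scale (SE 0.23, adjusted p = 0.00434) without the 6.

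Gmnn, the loading inhibitor, had 30.3 to 130.7 CPM (median 73.8) in Gata3-GFP+ pools against 66.9 to 154.7 CPM (median 128.7) in Gata3-GFP- pools, and fell by 0.67 on the log2 scale (SE 0.13, adjusted p = 0.000931). Cdc6 and Cdt1 did not pass, with −0.63 and −0.45. Of the MCM genes Mcm5 passed: it had 46.5 to 235 CPM (median 108.9) in Gata3-GFP+ pools against 93.6 to 228 CPM (median 158.9) in Gata3-GFP- pools and fell by 0.58 on the log2 scale (SE 0.14, adjusted p = 0.00683), with −0.73 without the doubted pools. Cdc45 had 5.71 to 86.4 CPM (median 37.9) in Gata3-GFP+ pools against 29.1 to 119.6 CPM (median 74.96) in Gata3-GFP- pools, and fell by 0.95 on the log2 scale (SE 0.23, adjusted p = 0.00588). Dbf4 had 21.3 to 79.02 CPM (median 43.3) in Gata3-GFP+ pools against 43.6 to 108.8 CPM (median 68.7) in Gata3-GFP- pools, and fell by 0.71 on the log2 scale (SE 0.18, adjusted p = 0.00703). Lig1 had 34.3 to 116.7 CPM (median 73.3) in Gata3-GFP+ pools against 42.4 to 162 CPM (median 115.1) in Gata3-GFP- pools, and fell by 0.63 on the log2 scale (SE 0.14, adjusted p = 0.00335). In each of these genes the fractions overlapped, and the Gata3-GFP+ median was the lower.

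No gene of the origin recognition complex, of primase and polymerase alpha or of polymerases delta and epsilon passed in MCs, with all pools or without the 6. The smallest p of each class belonged to Orc6 at −0.31 (SE 0.086, adjusted p = 0.0152), Prim1, the catalytic primase subunit, at −0.46 (SE 0.13, adjusted p = 0.021) and Pold1 at −0.64 (SE 0.20, adjusted p = 0.0303). Orc6 had 95.5 to 205 CPM (median 136.7) in Gata3-GFP+ pools against 108.96 to 216 CPM (median 169) in Gata3-GFP- pools, Prim1 had 32.5 to 121.2 CPM (median 63.9) in Gata3-GFP+ pools against 55.7 to 116.5 CPM (median 88.7) in Gata3-GFP- pools, and Pold1 had 5.42 to 48.8 CPM (median 27.4) in Gata3-GFP+ pools against 19.6 to 84.01 CPM (median 37.8) in Gata3-GFP- pools. Rpa1 had 29.7 to 123.5 CPM (median 65.5) in Gata3-GFP+ pools against 38.8 to 139.97 CPM (median 117.3) in Gata3-GFP- pools: it was −0.55 (SE 0.15, adjusted p = 0.0159) with all pools and fell by 0.63 on the log2 scale (SE 0.16, adjusted p = 0.00428) without the 6. Sympathetic neuroblast markers moved with the MC fractions when all pools were used (3 of 8 lower in Gata3-GFP+ MCs, sums of 39.4 to 868 CPM (median 74.7) against 11.4 to 4003 CPM (median 25.6)), and 2 of 5 mural markers were higher (121.6 to 11169 CPM (median 6474) against 69.4 to 4769.8 CPM (median 2664)). Without the 6 doubted pools, 0 of 5 sympathetic markers tested were lower and 1 was higher, and 4 of 5 mural and 3 of 6 mesenchymal markers were higher. Their part in the replication genes was not tested. Macrophage and megakaryocyte sums were at most 9.69 CPM in MCs.

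SNS cells went the other way. With all pools, 11 of 47 genes were higher in Gata3-GFP+ SNS cells and 0 were lower, against 2.01% and 1.86% of the 16143 genes tested, and 44 log2 fold changes were positive, with a median of 0.26 (all genes 0.00). Without the doubted pools, 15 Gata3-GFP+ and 16 Gata3-GFP- pools gave 11 higher and 1 lower, Gins2, against 4.94% and 5.48%, with the same median of 0.26 and 41 positive values. Of the 11 higher genes, 9 passed both ways (Mcm10, Cdc45, Prim1, Pcna, Rfc4, Rpa1, Rrm1, Rrm2 and Tyms), Dbf4 and Tk1 passed only with all pools, and Pola2 and Rfc5 only without the doubted ones. The summed level was 1.29-fold higher with all pools and 1.27-fold without them, and 9 Gata3-GFP+ pools exceeded every Gata3-GFP- pool both times, of 18 and of 15. A single fit of all 8 populations gave 7 higher, and ERCC size factors gave 17 while moving the median of all genes to 0.35. The shares of all genes called under these settings are not given here, so neither count is read as a result about the members.

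All 4 nucleotide supply genes were higher with all pools. Rrm2 ranged from 288 to 775 CPM (median 393) in the Gata3-GFP+ pools and from 67.1 to 394 CPM (median 226) in the Gata3-GFP- pools. It rose by 1.02 on the log2 scale (SE 0.18, adjusted p = 0.000216), a 2.03-fold difference, and by 0.98 without the doubted pools. Its partner Rrm1 had a narrower spread, 224 to 405 CPM (median 354) against 137.9 to 302 CPM (median 247), and rose by 0.48 on the log2 scale (SE 0.091, adjusted p = 0.000599), with 13 of 15 Gata3-GFP+ pools above every Gata3-GFP- pool without the doubted ones. Tyms rose by 0.58 on the log2 scale (SE 0.092, adjusted p = 4.65e-05) and Tk1 rose by 0.75 on the log2 scale (SE 0.18, adjusted p = 0.00494), the latter at 0.67 (SE 0.20, adjusted p = 0.0156) without them.

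Fork genes rose in part. Mcm10 had 12.9 to 72.995 CPM (median 29.5) in Gata3-GFP+ pools against 1.64 to 38.7 CPM (median 15.1) in Gata3-GFP- pools, and rose by 0.93 on the log2 scale (SE 0.23, adjusted p = 0.00757). Cdc45 had 50.7 to 131.9 CPM (median 79.99) in Gata3-GFP+ pools against 10.4 to 83.1 CPM (median 44.1) in Gata3-GFP- pools, and rose by 0.89 on the log2 scale (SE 0.18, adjusted p = 0.00089). Both are needed to set the helicase moving, while the MCM ring itself did not pass in any of its 6 genes: log2 fold changes lay between 0.15 and 0.25, and Mcm7, which had the smallest p, had 149.6 to 314 CPM (median 242) in Gata3-GFP+ pools against 101.7 to 293 CPM (median 212) in Gata3-GFP- pools, with 0.21 (SE 0.11, adjusted p = 0.261). Prim1 had 58.2 to 159.2 CPM (median 103.4) in Gata3-GFP+ pools against 24.6 to 99.97 CPM (median 61.5) in Gata3-GFP- pools, and rose by 0.68 on the log2 scale (SE 0.13, adjusted p = 0.000571). Pcna had 146.9 to 438 CPM (median 302) in Gata3-GFP+ pools against 79.2 to 269 CPM (median 193) in Gata3-GFP- pools, and rose by 0.61 on the log2 scale (SE 0.13, adjusted p = 0.00219), and 10 of the 15 Gata3-GFP+ pools left without the doubted ones exceeded every Gata3-GFP- pool. Rpa1 had 78.5 to 209.9 CPM (median 147.2) in Gata3-GFP+ pools against 45.04 to 131.6 CPM (median 102.2) in Gata3-GFP- pools, and rose by 0.52 on the log2 scale (SE 0.12, adjusted p = 0.00363). Dbf4 had 47.7 to 126.5 CPM (median 76.2) in Gata3-GFP+ pools against 28.1 to 88.1 CPM (median 51.3) in Gata3-GFP- pools and rose by 0.53 on the log2 scale (SE 0.13, adjusted p = 0.00497), but had 0.47 (SE 0.14, adjusted p = 0.0124) without the doubted pools.

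The licensing genes, the origin recognition complex, polymerases delta and epsilon and the joining genes had 0 called with all pools. Gmnn had 0.34 (SE 0.11, adjusted p = 0.0426), Orc4 0.31 (SE 0.09, adjusted p = 0.0227), Pold2 0.22 (SE 0.11, adjusted p = 0.229) and Fen1, with the overlap given above, 0.76 (SE 0.27, adjusted p = 0.0701). Orc4 had 70.6 to 134.2 CPM (median 92.03) in Gata3-GFP+ pools against 41.4 to 111.4 CPM (median 73.8) in Gata3-GFP- pools, and Gmnn had 87.2 to 180.04 CPM (median 126.4) in Gata3-GFP+ pools against 61.6 to 138.5 CPM (median 93.98) in Gata3-GFP- pools. Pold2 had 50.5 to 102.4 CPM (median 83.5) in Gata3-GFP+ pools against 48.3 to 98.9 CPM (median 66.1) in Gata3-GFP- pools, and Fen1 had 0.822 to 7.88 CPM (median 5.20) in Gata3-GFP+ pools against 0.704 to 6.84 CPM (median 2.64) in Gata3-GFP- pools. In all 4 the ranges overlapped and the Gata3-GFP+ median was the higher. Gins2 went against its class: it had 14.5 to 57.7 CPM (median 44.4) in Gata3-GFP+ pools against 29.2 to 105.1 CPM (median 58.6) in Gata3-GFP- pools without the doubted pools and fell by 0.64 on the log2 scale (SE 0.17, adjusted p = 0.00587), with the shared exon bases given above. With all pools, 3 of 8 sympathetic neuroblast markers were higher in Gata3-GFP+ SNS cells (sums of 21.7 to 3151 CPM (median 1087) against 49.6 to 923 CPM (median 578)) and 1 of 7 neural crest and glial precursor markers was lower (11.54 to 1291 CPM (median 937) against 11.4 to 1546 CPM (median 1215)). Without the doubted pools, 7 of 8 sympathetic markers were higher and 1 lower, and markers of neural crest (3 of 7), mesenchyme (4 of 6, median −2.49), urogenital epithelium (2 of 4, with 1 higher) and mural cells (1 of 4) were lower. With all pools 2 of 4 urogenital epithelium markers were lower (median −2.11; 1.58 to 165 CPM (median 81.3) against 1.64 to 111.3 CPM (median 27.1)). Their part in the SNS differences was not tested.

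The difference between these differences was itself tested in 1 fit of the E11.5 pools. The Gata3-GFP+ difference was higher in SNS cells than in MCs for 27 of 47 genes and lower for 0, against 5.17% and 4.49% of 17733 genes, with a median of 0.70 over the members and −0.01 over all genes. Without the doubted pools it was 24 and 0, against 4.73% and 5.64%, with a median of 0.75. Rrm2 differed by 1.84 (SE 0.25, adjusted p = 1.19e-07), Cdc45 by 1.81 (SE 0.29, adjusted p = 4.15e-06), Fen1 by 1.62 (SE 0.39, adjusted p = 0.00159), Tk1 by 1.54 (SE 0.29, adjusted p = 5.77e-05) and Tyms by 1.26 (SE 0.18, adjusted p = 2.88e-07). All but Fen1, which then had an adjusted p of 0.019, passed without the doubted pools. Over both fractions, 14 genes were higher in SNS cells than in MCs and 0 lower, against 11.4% and 12% of all genes. Cdt1 was higher by 0.56 (SE 0.15, adjusted p = 0.00153) on the log2 scale, Pola2 by 0.56 (SE 0.12, adjusted p = 0.000171), Cdc7 by 0.49 (SE 0.13, adjusted p = 0.00168), Mcm2 by 0.49 (SE 0.095, adjusted p = 4.04e-05) and Mcm3 by 0.48 (SE 0.11, adjusted p = 0.000235). Without the doubted pools 20 genes were higher and 1, Gins2, was lower, against 20.5% and 19.7%. With ERCC size factors 45 were higher, while the median of all genes moved to 0.48 and that of the members from 0.24 to 0.77. The share of all genes called under that scaling is not given here, so the 45 are not read as a result about the members.

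Read across the 4 comparisons, 14 genes were lower in both Gata3-GFP+ ECs and Gata3-GFP+ HCs: Cdc6, Cdt1, Gmnn, Mcm3, Mcm5, Mcm6, Mcm10, Gins2, Pola1, Pola2, Pold3, Rfc2, Lig1 and Tk1. That is 14 of the 36 lower in ECs and 14 of the 16 lower in HCs, and Orc1 and Pold1 were the other pair in HCs. As 76.6% of the 47 genes were lower in ECs, most of any set of members would lie among the 36. Shares of all genes called in several comparisons at once are not given here, so the overlaps are a listing and no excess is claimed. Gmnn, Mcm5, Rfc2 and Lig1 were lower in ECs, HCs and MCs, and Gins2 and Tk1 joined them when the doubted MC pools were left out. All 10 genes lower in MCs and all 11 higher in SNS cells were also among the 36 of ECs. Of these, Cdc45, Dbf4, Pcna, Rfc4, Rrm2 and Tyms were lower in MCs and higher in SNS cells, and without the doubted pools the 6 were Cdc45, Pcna, Rfc4, Rpa1, Rrm2 and Tyms. In no comparison, with or without those pools, were Orc3, Orc5, Gins3, Gins4, Cdc7, Pole2, Rfc3 or Fen1 called.

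Pools of one population also varied among themselves, and the members varied together. Spearman's rho of each gene with the mean of the other 46 was taken over the 17 to 20 pools of each population and averaged over the 8, as a description, since pools of a population differ in depth and may share embryos. Pcna stood highest at 0.81 (0.60 to 0.90 over the populations), followed by Rrm2 at 0.75, Tk1 and Mcm5 at 0.67 and 0.67, and Mcm6 at 0.66. At the other end were Orc5 (0.15), Orc3 (0.14) and Orc4 (−0.08), whose EC log2 fold changes were −0.30, −0.20 and −0.07. Without the 12 E11.5 pools, Pcna was at 0.79, Rrm2 at 0.78, Orc3 at 0.10, Orc5 at 0.09 and Orc4 at −0.02. The median over the members was lowest in Gata3-GFP- HCs (0.30) and Gata3-GFP+ ECs (0.33), and highest in Gata3-GFP+ SNS cells (0.66) and Gata3-GFP+ HCs (0.65). Across pools the members' mean followed the total of gene counts with rho from −0.29 to 0.44, and gene counts per ERCC count with rho from 0.04 to 0.75, in the 8 populations.

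**Figure D5:**
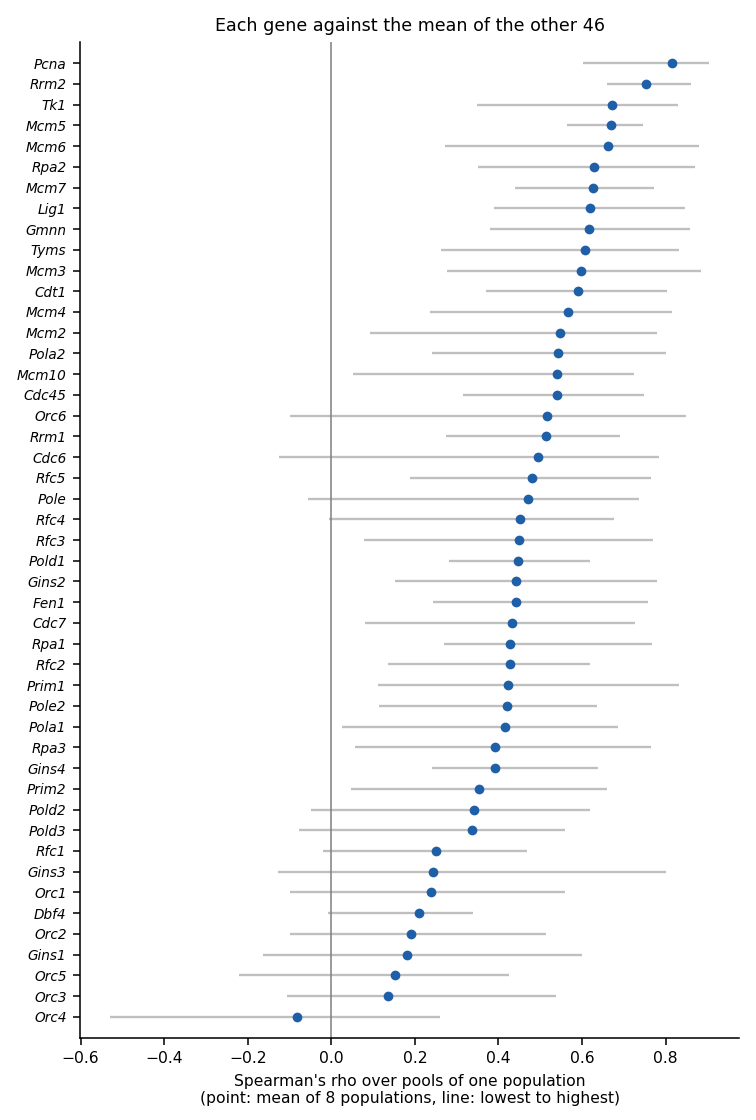
Spearman's rho of each of the 47 genes (y axis) with the mean of the other 46 over the pools of one population (x axis): the point is the mean over the 8 populations and the line runs from the lowest to the highest. Pcna leads at 0.81 and Orc4 is last at −0.08.

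The genes most like the machinery were then ranked by the same measure, against the mean of the members, among 13387 genes. Members held 33 of the first 100 places and 41 of the first 500, and 34 of the first 100 without the doubted pools; each member is itself part of that mean, which favours it. Among the non-members with the highest mean rho were Pcna-ps2 (0.77), a Pcna pseudogene that may take reads of Pcna, the cyclin Ccne2 (0.65), Hat1, which acetylates new histones (0.64), the chromatin remodeller Hells (0.64), Ccne1 (0.63), the histone chaperone Dnajc9 (0.62), Dut, which clears dUTP (0.61), Tcf19 (0.61) and the exonuclease Exo1 (0.60). The median over all genes was 0.00.

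A list of 38 further genes of the pathway, none of them among the 47, was read in the same fits, with the shares over all genes given above for each comparison. In ECs 18 of 37 tested were lower and 0 higher, against 16.5% and 19.5% of all genes, with a median of −0.56. The histone chaperone Asf1b fell by 1.92 on the log2 scale (adjusted p = 1.31e-06), Clspn, a checkpoint protein of the fork, by 1.76 (adjusted p = 0.000668), and Dctpp1, which clears modified nucleotides, by 1.72 (adjusted p = 4.67e-13). In HCs 15 of 38 were lower and 0 higher, against 9.53% and 17.1%, with a median of −0.45, led by Fam111a, which guards the fork, at −1.23 (adjusted p = 7.31e-10), and Asf1b at −1.05 (adjusted p = 5.48e-06). In MCs 2 of 38 were lower and 0 higher, against 2.15% and 2.21%, among them Dctpp1, by 0.69 (adjusted p = 0.00172), and 4 without the doubted pools. In SNS cells 5 of 38 were higher and 0 lower, against 2.01% and 1.86%, with a median of 0.41, among them Asf1b, Dut, Dck, a salvage kinase, and Fam111a, by 0.42 (Dut) to 0.87 (Asf1b), and 9 without the doubted pools. The 9 mitosis genes were lower in 2 of 9 in HCs and 0 of 9 in MCs, where their median was −0.77, and 1 of 9 was higher in SNS cells.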

How the data were processed

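The deposited table holds raw read counts per gene, which the authors made from single-end Smart-seq2 reads. The study's methods name STAR and HTSeq, whereas the submitters' processing notes name GSNAP and HTSeq 0.5.3p3 with mm10. The strand setting is not given in the sources used here. Of the 47 genes, 8 share over 10% of their exon bases with another gene, among them Gins2, Fen1, Orc2 (29.8%) and Rfc2 (15.1%). Per pool, a median of 16.3% of reads was ambiguous between genes, 11.7% lay in no gene and 23.0% was not aligned, and these stayed out of library sizes. After the study's limits, a pool was kept if genes and ERCC RNAs together had more than 500000 reads, genes had more than 20% of all reads, and mitochondrial and ERCC counts were each below 20%. The study's limit on high coverage genes, a term not defined in the sources used here, was not applied. Every kept pool had more than 8000 genes with at least 10 counts.

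For each cell type, genes reaching 10 counts in 5 or more pools were scaled by TMM and fitted with edgeR 4.0.16 (R 4.3.3, quasi-likelihood test, robust), with Benjamini-Hochberg adjustment over all genes. Genes past an adjusted p of 0.01 and a log2 fold change of 0.1 in size were called. SE is the log2 fold change over the root of F. Levels are CPM. Full statistics are given for the member of each role class with the largest called change, or the smallest p where none was called, and for the 5 largest differences between cell types. Likeness is the mean Spearman rho within populations, computed with pandas 2.3.3 and scipy 1.17.1. Figures used matplotlib 3.10.9. Alternatives were DESeq2 1.42.0 (size factors and Wald test), scran 1.30.0 and ERCC size factors, other filters and limits, all pools, deeper pools, one fit of all populations and the study's test (scanpy 1.11.5). Some genes of the lists are not reported here by name. The members and lists were chosen with earlier results of these data known. Positions are from RefSeq on GRCm38.p6 and exon lengths from GENCODE M21.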

Additional observations from a re-analysis of the deposited data

Results flagged for a closer look

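For 7 replication genes, 10 results stood out because the Gata3-GFP+ against Gata3-GFP- log2 difference was not the same in both cell types, by the interaction term of edgeR's quasi-likelihood test. Between HCs and ECs the difference was higher in HCs by 1.56 (adjusted p = 1.46e-05) for Rrm2, 1.08 (adjusted p = 0.00534) for Cdc45, 1.06 (adjusted p = 4.57e-06) for Pcna, 1.05 (adjusted p = 0.000272) for Gins2 and 1.04 (adjusted p = 0.00351) for Tk1. Without the 9 Gata3-GFP+ HC pools highest in megakaryocyte markers these were 1.75, 1.13, 1.17, 1.24 and 1.19, all past the threshold. With 4 Gata3-GFP+ HC pools left, all but Cdc45 (1.30 (adjusted p = 0.0239)) were past it.

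Between SNS cells and MCs the difference was higher in SNS cells by 1.84 (adjusted p = 1.19e-07) for Rrm2, 1.81 (adjusted p = 4.15e-06) for Cdc45, 1.62 (adjusted p = 0.00159) for Fen1, 1.54 (adjusted p = 5.77e-05) for Tk1 and 1.26 (adjusted p = 2.88e-07) for Tyms. Without the 12 E11.5 pools whose markers go against the label, they were 1.80, 1.91, 1.36, 1.57 and 1.28, and Fen1 was no longer past the threshold (adjusted p = 0.019). Fen1 is counted low and shares most of its exon bases with other genes.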

How the results depend on the processing

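None of the 44 results on genes with full statistics and of the 10 counts of members reversed. Outside these, Gata3 in MCs went from −0.66 to 1.88, and the sympathetic markers in MCs from 3 lower to 1 higher, without the pools whose markers go against the label. The genes with full statistics kept their direction and their side of the threshold in 509 of 550 values under the alternatives, and were weaker in 27 and stronger in 14. Of the 10 counts of members, 23 values under the alternatives were beyond 1.5 times the reported count and the rest within it. The 16 genes lower in HCs became 27 at an adjusted p under 0.05, 1 with a log2 fold change beyond 1, 8 without the HC pools high in megakaryocyte markers and 0 without the Gata3-GFP+ HC pools above every Gata3-GFP- HC pool in those markers. The 1 gene higher in HCs became 0 with scran size factors, ERCC size factors, no filter on genes, the study's test, a log2 fold change beyond 1 and each of the 3 sets with HC pools left out. The 10 genes lower in MCs became 0 with ERCC size factors, 21 at an adjusted p under 0.05, 0 with a log2 fold change beyond 1 and 16 without the pools whose markers go against the label. In SNS cells, 1 gene was lower without those pools, and the 11 higher genes became 17 with ERCC size factors, 7 in one fit of all populations, 17 at an adjusted p under 0.05 and 1 with a log2 fold change beyond 1. The 17 genes whose Gata3-GFP difference differed between ECs and HCs became 27 with ERCC size factors and 9 without a filter on genes. The cause of these changes was not tested, apart from the stricter and looser limits, which act by construction. With ERCC size factors the median of all genes moved to −0.60 in ECs and 0.35 in SNS cells, beside −1.66 and 0.64 for the members. Except where stated above, the shares of all genes called under the alternatives are not given here.

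No paired analysis was possible because the columns carry no replicate numbers. In Gata3-GFP+ ECs, 10 counts were reached by Fen1 in 3, Orc1 in 12, Cdc6 in 14 and Mcm10 in 15 of 19 pools, which limits what depth can show for them. The sets with pools left out were chosen after seeing the data.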
